A study of Schizosaccharomyces pombe with 8 samples.

Results

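These data describe the established response of fission yeast P cells to M-factor, the mating pheromone secreted by M cells, after 4 and 6 h of treatment. They come from 2 of the 8 arrays of the series, chosen by their labels as the h+ cyr1- arrays of 4 and 6 h with the treated RNA in Cy3. The treated P cells (Δmat2, so that they cannot switch mating type, and cyr1 disrupted) had been grown at 30 °C in minimal medium and given M-factor at 1 μg/ml. The untreated P cells were the same culture at 0 h, with the same genotype, and their RNA was the other channel of each array. The arrays set beside them hold P cells of the same culture after 2 h of M-factor, with the treated RNA in Cy5, and M cells (h- cyr1 sxa2, written sax2- in the labels) after 4 and 6 h of P-factor at 1 μg/ml against their own 0 h RNA. Loss of cyr1, the adenylate cyclase gene, is shared by treated and untreated cells of both mating types, so that cells respond in the presence of nitrogen. Loss of sxa2, a protease that degrades P-factor, is carried by the M cells alone. There was 1 array for each time point and no replicate culture is named, so time points stand in for replicates wherever a test is given.

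Pheromones of fission yeast bind a G-protein-coupled receptor on cells of the other mating type and act through Ras and a MAP kinase cascade. The cascade raises the activity of Ste11, a transcription factor of the HMG box family, which switches on genes of mating and of entry into meiosis. Cells then stop in G1, grow towards a partner, adhere, fuse their walls and nuclei and, as diploids, pass into meiosis. The P cells measured here had no M partners and were haploid, so genes of nuclear fusion or recombination are read as transcripts only.

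The measurement is the log2 ratio of M-factor-treated over untreated P cells, where 1 is a 2-fold rise and -1 a 2-fold fall. Of 4752 named genes, mostly with 2 spots each, 4646 had a value at 4 h, 4658 at 6 h and 4638 at both. Duplicate spots of a gene had a median SD of 0.342 at 4 h and 0.339 at 6 h, and lay over 1 log2 unit apart for 800 and 781 genes. Medians of blocks of 40 consecutive spots ranged between -1.31 and 1.11 at 4 h and between -1.14 and 0.88 at 6 h. Each array carries 144 such blocks and then a copy of each with the same genes, and a block differed from its copy by over 0.5 in 49 cases at 4 h and 51 at 6 h. Array position therefore moves with the values, and its part in any single gene's ratio was not tested; counts after centring each array on a running median along the spots are given beside the main ones. The spots are double-stranded PCR products, so transcripts of opposite strands, or of near-identical gene copies, are not separated. The deposited files give no intensities, so signal over background is unknown. The mating type labels were checked on the array of untreated M over untreated P cells. There map2, the P-factor gene, stood at -2.94 and map3, the M-factor receptor, at -1.23, whereas mam1 and mam2, the M-factor transporter and the P-factor receptor of M cells, stood at 2.15 and 1.65. The remaining markers differed less. The P-cell gene SPAC1565.03 stood at -0.587, and the M-cell genes mam3 and sxa2 at 0.469 and 0.232. The P agglutinin gene map4, at 0.0687, did not set the untreated cell types apart. The M-factor genes mfm1, mfm2 and mfm3 had no named spot.

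Many of the strongly induced genes are on the study's own list of candidate Ste11 sites, and the sites of 10 of them are shown because they bear the same 10 letters. Each is written as listed there, with the letters of the Ste11 box, or their reverse complement, in capitals and 4 flanking bases on each side in lower case.
hmg1: agagAACAAAGAAActta
dni2: aaaaTTTCTTTGTTtcaa
rep1: gtaaAACAAAGAAAggat
SPBC146.02: catgAACAAAGAAAcctt
spk1: aaacTTTCTTTGTTattg
dni1: cgggAACAAAGAAAacac
dhc1: tagaTTTCTTTGTTccgc
rgs1: atgaTTTCTTTGTTtaaa
ste7: tgatTTTCTTTGTTtgaa
fus1: accgAACAAAGAAAgtta
Of the listed genes with values here, 31 had exactly these letters, 21 in the orientation shown for dni2 and 10 in that shown for hmg1, and 123 had a site that departs from them. The median log2 ratios were 2.37 at 4 h and 2.33 at 6 h for the 31 genes, and 1.80 and 1.99 for the 123 genes. Of the 31 genes 27 were 2-fold up at both times, and of the 123 genes 104. The study made this list from genes induced on these same arrays, so the counts are not independent evidence, and the share of all promoters with such letters was not analysed here. Among the 123 is bdf1, with the site cttgAACAAAGTAAacaa and ratios of 5.87 at 4 h and 7.28 at 6 h.

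A total of 267 genes were at least 2-fold up at both 4 and 6 h of M-factor, which is 5.76% of the 4638 genes, and 204 were at least 2-fold down at both, 4.4%. Taken alone, the 4 h array had 446 genes up and 498 down, and the 6 h array 385 up and 376 down. Only SPCC297.05 was past 2-fold in opposite directions, at 4.36 at 4 h and -1.98 at 6 h, and its 4 h value rests on 1 spot. Of the 267 induced genes 237 lay within 2-fold of each other at both times, 115 were past 3-fold at both, and 152 had every spot past 2-fold. For the 204 repressed genes these counts were 164, 49 and 81. The threshold fell among close values. The atg15 gene was just inside at 1.33 and 1.00, and ppk33 just outside at 0.999 and 1.59. After running-median centring, 213 of the 267 induced and 143 of the 204 repressed genes were still past 2-fold at both times. The median ratio of the induced genes was 1.39 at 2 h, 1.66 at 4 h and 1.73 at 6 h, and that of the repressed genes -1.22, -1.65 and -1.42. These 3 arrays share the 0 h RNA, so their values stand side by side without a correlation.

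**Figure D1:**
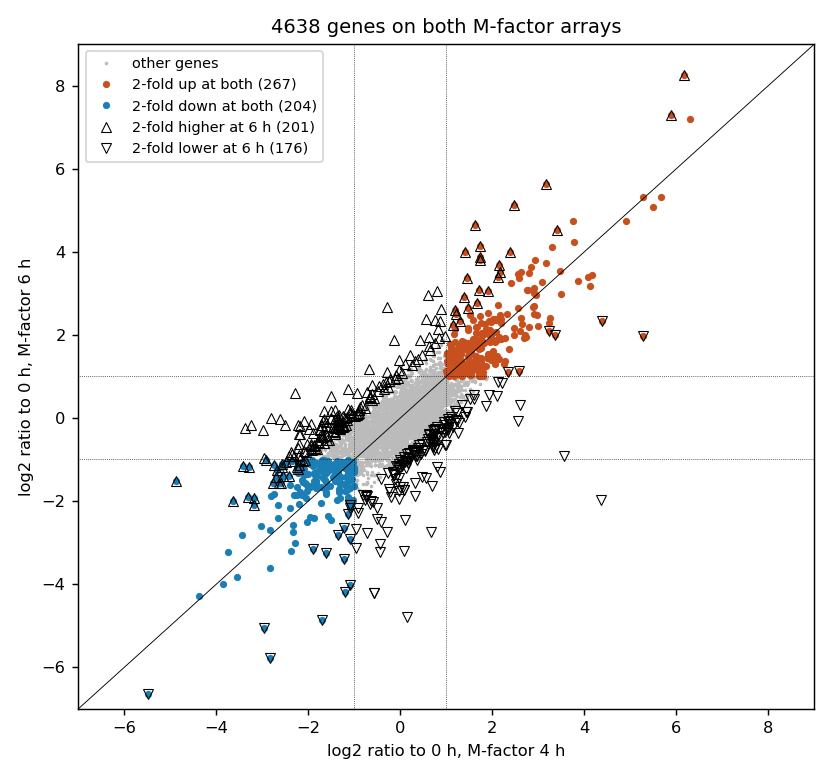
Each point is a gene, with its log2 ratio of M-factor-treated over untreated P cells at 4 h on the x axis and at 6 h on the y axis. Filled points mark the 267 genes 2-fold up and the 204 genes 2-fold down at both times, triangles the 201 genes 2-fold higher and the 176 genes 2-fold lower at 6 h than at 4 h, and dotted lines the 2-fold limits.

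The mean of the 4 and 6 h ratios was tested against 0 with limma, which took the spread between 4 and 6 h from both pheromone courses. At an adjusted p limit of 0.05, 948 of 4496 genes were higher, 21.1%, and 895 lower, 19.9%, with M-factor. With the M-factor arrays alone it called 585 up and 544 down, and when the change had to exceed 1.5-fold 225 up and 169 down. The ratios share the 0 h RNA, whose own spread the test leaves out. As RNA was taken from whole cultures, a larger share of responding cells and more RNA per cell cannot be told apart. Below, "rose" and "fell" are used of genes that passed this test.

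The largest rise was that of hmg1, which encodes HMG-CoA reductase, the rate-limiting enzyme of sterol synthesis. Its spots read 6.45 and 5.88 at 4 h and 8.53 and 7.97 at 6 h, a mean over both times of 7.21 (standard error 0.428, adjusted p = 0.000154, limma). The spots of the 2 times did not overlap. The dni2 transcript, for a claudin-like membrane protein of cell fusion, stood at 6.29 and 7.19 (mean 6.74, standard error 0.622). That of bdf1, for a bromodomain protein, stood at 5.87 and 7.28. The symbols bdf1, fis1, rsm1 and srp14 follow the platform's gene assignment, and the probes were not checked by sequence. For dni2 and bdf1 the spots of 4 and 6 h overlapped, with dni2 at 6.71 and 5.88 at 4 h and at 6.34 and 8.03 at 6 h. SPAC1565.03 gave even values, 5.74 and 5.60 at 4 h and 5.69 and 4.93 at 6 h. The fis1 gene was as level, at 5.28 and 5.33. By contrast, csr103 had a mean of 5.48 at 4 h from spots at 7.83 and 3.13, so its 4 h level is known only within that range. The rsm1 gene, for an RNA export factor, stood at 4.90 and 4.74. The srp14 gene, for a signal recognition particle subunit, stood at 3.78 and 4.24, and knh4 at 3.41 and 4.52. The ams1 gene, for a vacuolar α-mannosidase, stood at 4.08 and 3.40 with spots that agreed closely at each time, 4.00 and 4.16 at 4 h and 3.44 and 3.35 at 6 h. Among the 15 genes with the highest means, adjusted p lay between 2.5e-05 for SPAC1565.03 and 0.00251 for dni1.

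**Figure D2:**
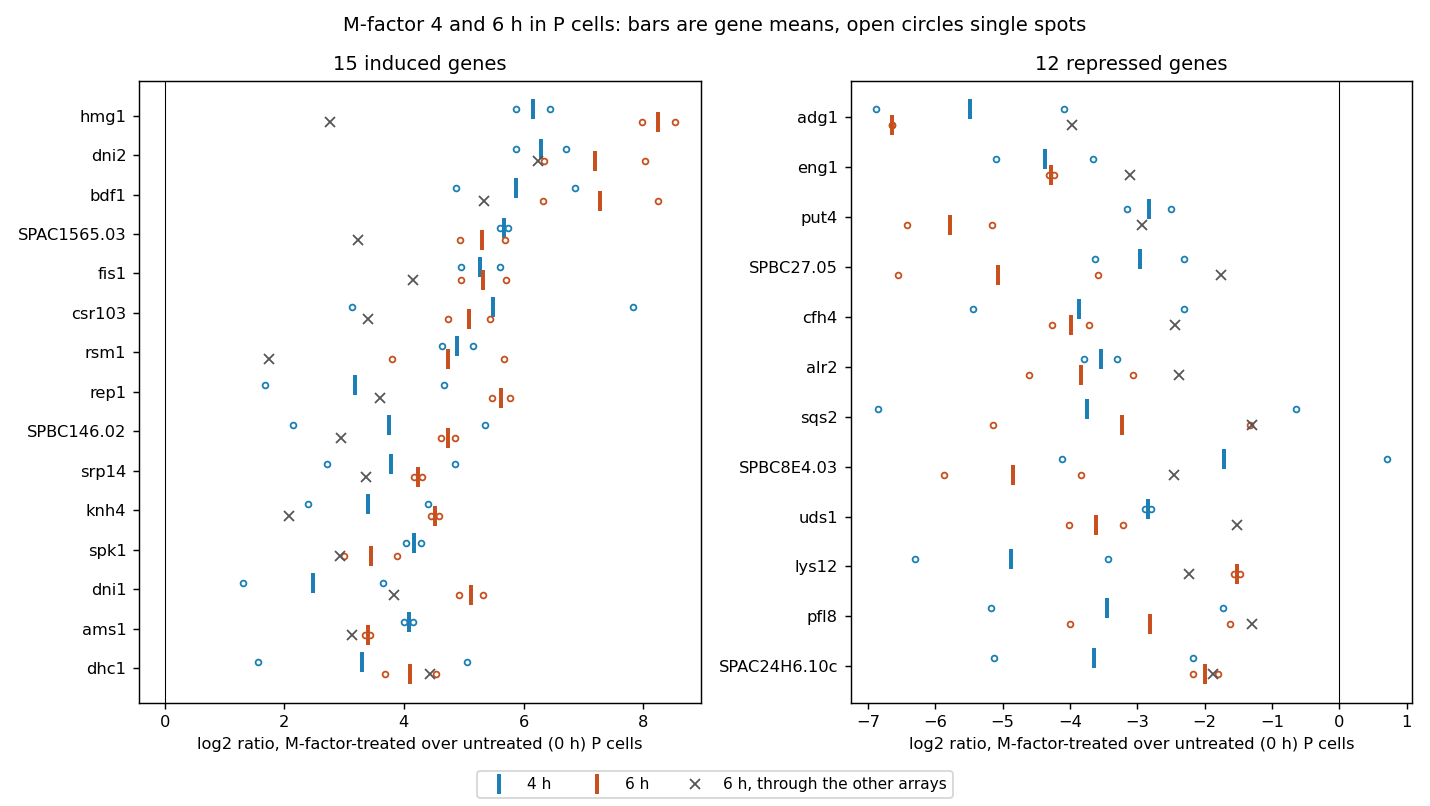
Log2 ratios of M-factor-treated over untreated P cells for the 15 induced genes with the highest and the 12 repressed genes with the lowest mean of 4 and 6 h. Vertical bars are gene means and open circles single spots at 4 h (blue) and 6 h (red), and crosses give the 6 h ratio through the other arrays; for hmg1 the cross lies at 2.77 against a bar at 8.25, and both adg1 spots at 6 h sit at the floor of -6.64.

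The deepest falls included adg1 and eng1, both genes of cell separation. Expression of adg1, a cell surface glycoprotein gene of cell separation, was at -5.48 at 4 h and at -6.64 at 6 h, where both spots sat at the lowest ratio given on that array, 0.01, so that the 6 h value is a bound. The eng1 gene, for the endoglucanase that cuts the primary septum, read -3.66 and -5.10 at 4 h and -4.32 and -4.23 at 6 h (mean -4.33, standard error 0.174, adjusted p = 5.09e-05, limma). The cfh4 gene, for a chitin synthase regulatory factor, was as low, at -3.87 and -3.99. The put4 gene, for a proline transporter, stood at -2.83 at 4 h and -5.79 at 6 h. The alanine racemase gene alr2 stood at -3.54 and -3.84. The flocculin gene pfl8 stood at -3.45 and -2.82, from spots between -5.18 and -1.63. The sqs2 gene is the least certain of the 12, with spots at -0.65 and -6.85 at 4 h and at -5.14 and -1.32 at 6 h around means of -3.75 and -3.23. SPBC8E4.03 had 1 spot above 0 at 4 h, 0.70 against -4.12, and spots at -5.87 and -3.84 at 6 h. SPBC27.05 stood at -2.97 and -5.07, uds1 at -2.84 and -3.62, lys12 at -4.87 and -1.52 and SPAC24H6.10c at -3.65 and -1.99.

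Genes of pheromone signalling were raised, and none was lowered by the test. Of 18 genes of the pathway tested, 11 rose, 61.1% against 21.1% of all genes, and 0 fell, against 19.9%. The median ratio was 0.691 at 4 h and 0.724 at 6 h, against 0.0447 and -0.0338 over all genes. For this list and for each list below with 0 genes that fell, limma also had 0 lower genes at an unadjusted p of 0.05. The MAP kinase gene spk1 stood at 4.16 and 3.44 (mean 3.80, standard error 0.207). The rgs1 gene, for the regulator that switches the receptor's G-protein off, stood at 4.38 and 2.33, and its spots at 6 h, 2.23 and 2.43, lay below those at 4 h, 5.18 and 3.58. The ste7 gene, which is required for conjugation, stood at 3.48 and 2.99. The ste11 gene itself stood at 2.15 and 1.95. Expression of gap1, the GTPase-activating protein of Ras, was at 1.65 and 1.90, and that of ste4, an adaptor of the cascade, at 0.952 and 1.49. The ste6 gene, for the Ras exchange factor, did not pass the test, at 0.0688 and 0.503 (adjusted p = 0.232).

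Most genes listed for P-cell functions were raised as well. Of the 6 genes 5 rose, 83.3% against 21.1% of all genes. In M cells after 6 h of P-factor, map1, sxa1 and map4 stood at 0.955, 0.962 and 0.656. Such ratios to 0 h of the same culture do not measure whether a gene is particular to P cells. The paper lists map1 for both M and P cells. Its arrays did not pick out map4, but its PCR measurements found that gene specific to P cells. The P-factor gene map2 stood at 3.08 and 3.28 (adjusted p = 0.000254, limma), and map1, a co-regulator of P-cell genes, at 1.09 and 1.78. The protease gene sxa1 stood at 1.54 and 1.19 and the agglutinin gene map4 at 0.815 and 0.716. The receptor gene map3 did not pass the test, and its spots gave -0.613 at 4 h and -0.0854 at 6 h (adjusted p = 0.171, limma). Read through the other arrays, however, the 6 h RNA gave 2.28 for map3. The paper reports map3 as selectively induced by M-factor on its arrays too, and shows it by real-time PCR in nitrogen-starved cyr1+ cells. Of 7 M-cell genes with a value in P cells 3 rose. They were the M agglutinin gene mam3, at 1.79 and 2.05, mam4, for the enzyme that methylates M-factor, at 1.36 and 1.73, and mam1, at 0.844 and 1.32. The mam2 gene, at 0.343 and -0.569, and sxa2, at 0.0605 and 0.401, did not pass the test.

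The cell fusion list had a median of 1.45 at 4 h and 1.76 at 6 h, the highest among the lists of a function or cell type. The list of genes that the study's text and tables name, chosen there on these same samples, stood at 2.00 and 2.04. Of the 11 genes of the fusion list 7 rose, 63.6% against 21.1% of all genes, and 0 fell, against 19.9%. Beside dni2, they included dni1 at 2.48 and 5.12, the formin gene fus1 at 2.55 and 3.47, prm1, for a membrane protein of fusion, at 2.80 and 2.18, the nuclear fusion gene tht1 at 1.39 and 2.92 and the myosin gene myo51 at 1.45 and 1.76. Among 16 genes of dynein and of nuclear movement, which pull the nucleus back and forth in meiotic prophase, 10 rose and 1 fell. The heavy chain gene dhc1 stood at 3.30 and 4.11, with spots at 5.05 and 1.56 at 4 h. The intermediate chain gene dic1 stood at 2.93 and 3.79, the light intermediate chain gene dli1 at 1.98 and 2.00, and ssm4, for the dynactin subunit of the same movement, at 1.77 and 2.05. The cortical dynein anchor gene num1 stood at 1.61 and 4.64. Of 11 genes of the telomere bouquet and nuclear envelope 5 rose and 1 fell. Here sad1, for the SUN protein of the spindle pole, stood at 1.98 and 2.30, bqt1, which ties telomeres to it, at 1.54 and 1.58, and rif1 at -1.13 and -1.06. The 4 h value of ima1, an inner nuclear membrane protein gene, was 2.60 from spots at 4.90 and 0.309, and at 6 h the gene stood at 0.305.

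Regulators of meiosis and genes of recombination were raised in P cells that had no partner. Of 15 regulators tested 9 rose, 60% against 21.1% of all genes, and 1 fell, 6.67% against 19.9%. The rep1 gene, for an activator of premeiotic S phase genes, stood at 3.18 and 5.62, and mei2, for the RNA-binding protein needed for meiosis, at 3.37 and 1.99. The forkhead gene mei4 stood at 2.57 and 3.36, mei3, for the inhibitor of the Pat1 kinase, at 1.52 and 1.75, and atf21 at -1.74 and -1.23. Of 16 genes of linear elements and DNA breaks 11 rose and 0 fell. The kinase gene mek1 stood at 2.80 and 3.49, the linear element genes rec10 at 2.40 and 3.25, rec25 at 1.73 and 3.88 and rec27 at 1.47 and 1.48, and the nuclease gene mre11 at 1.98 and 1.41. Of 18 genes of strand exchange and crossover 10 rose and 0 fell. Of these, the recombinase gene dmc1 stood at 4.12 and 3.17, rti1, a relative of rad52, at 2.63 and 2.41, the crossover nuclease gene eme1 at 2.02 and 2.39 and meu13, an accessory factor of strand exchange, at 2.21 and 0.835. Cohesin genes did not move as a group. Of 15 tested, 2 rose and 3 fell, with mis4, the cohesin loader, at 2.89 and 3.13 and psm3, a core subunit, at 2.60 and 2.10. The meiotic subunit gene rec8 was at -1.04 and -0.272 (adjusted p = 0.102). Spore formation genes, which act later in meiosis, rose in 5 of 20 cases and fell in 3. These shares, 25% and 15%, lie near the 21.1% and 19.9% of all genes.

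Among cell cycle genes, those of the G1/S wave were raised and those of cell separation were lowered. Of 22 genes of the MBF factor and G1/S, 13 rose, 59.1% against 21.1% of all genes, and 0 fell, against 19.9%. Their medians were 0.843 at 4 h and 0.957 at 6 h. They included the cyclin gene cig2 at 2.90 and 2.51, mik1, for a kinase that holds Cdc2 inactive, at 2.31 and 2.51, cdc22, for the large subunit of ribonucleotide reductase, at 2.27 and 1.93, and the MBF co-repressor gene nrm1 at 1.93 and 2.34. Of 30 genes of the replicative helicase and polymerases 9 rose and 0 fell, and the highest, pol1, stood at 1.43 and 1.25. Of 12 cell separation genes tested 7 fell and 2 rose. Beside adg1, eng1 and cfh4, they included mid2, for an anillin-like septum protein, at -1.09 and -2.10. The adg2 mean of -0.581 at 4 h came from spots at -5.73 and 4.57, so its 4 h level is not known, and at 6 h the spots read -3.51 and -4.93. The APC/C activator gene slp1, which drives anaphase, stood at -2.83 and -2.69 (adjusted p = 0.000219, limma), while 7 of the 13 tested genes of its complex rose and 2 fell, with apc5 at 1.32 and 1.30. Of 24 centromere and kinetochore genes 4 rose and 4 fell, 16.7% each way, near the shares of all genes. The centromeric histone gene cnp1 stood at 2.19 and 2.27 and the kinetochore gene spc25 at -1.88 and -2.42. Mitotic entry genes rose in 3 of 21 cases and fell in 2, 14.3% and 9.52%, no more than the shares of all genes. Glucan genes rose in 14 of 24 cases, with bgl2 at 2.70 and 1.91 and the α-glucan synthase gene mok13 at 1.91 and 2.03, and fell in 3.

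Most gene lists of growth were lowered. Of 92 ribosome biogenesis genes tested 49 fell and 3 rose, and their median was -0.648 at 4 h and -0.505 at 6 h. The helicase gene dbp3 stood at -2.66 and -2.10, nhp2, for an snoRNP protein, at -2.60 and -1.58 and the fibrillarin gene fib1 at -2.15 and -1.29. Of 105 cytosolic ribosomal protein genes 40 fell and 7 rose. Their median was -0.806 at 4 h and -0.256 at 6 h, and 18 of 106 were 2-fold higher at 6 h than at 4 h, against 4.33% of all genes. After running-median centring the medians were -0.860 and -0.225. Many of these genes exist as near-identical pairs that a PCR product cannot separate, so single members such as rps1902, at -2.18 and -1.79, are uncertain. Amino acid biosynthesis genes fell in 30 of 56 cases and rose in 6, with medians of -0.548 and -0.585. Among them, lys9 stood at -2.64 and -1.56 and ilv1 at -2.42 and -1.40, both for amino acid pathway enzymes. Of 18 purine and pyrimidine genes 9 fell and 4 rose, with medians of -0.964 at 4 h and -0.391 at 6 h. Translation factors fell in 11 of 31 cases and RNA polymerase subunits in 10 of 29. Mitochondrial ribosomal protein genes were not lowered as a group. They fell in 11 of 52 cases, 21.2% against 19.9% of all genes, and rose in 7, with medians of -0.0176 at 4 h and -0.0466 at 6 h. Histone genes fell in 3 of 9 cases and rose in 0 by limma, or in 2 at an unadjusted p of 0.05.

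Genes of protein turnover were raised and those of nutrient transport were mixed. Of 26 autophagy genes 12 rose and 1 fell, with atg8, for the ubiquitin-like protein of the autophagosome, at 0.898 and 1.20. Of 33 proteasome genes 11 rose and 1 fell, with a median of 0.608 at 4 h and 0.225 at 6 h, and none was past 2-fold at both times. In nitrogen metabolism 7 of 21 genes rose, such as the vacuolar protease gene isp6 at 2.05 and 1.83, and 6 fell, such as the glutamine synthetase gene gln1 at -2.24 and -1.84 and the amino acid transporter gene cat1 at -1.93 and -1.64. The hexose transporter gene ght4 stood at 2.47 and 2.17 and ght2 at -1.26 and -1.06. The acetyl-CoA synthetase gene acs1 stood at -2.03 and -2.51. The ferric reductase gene frp1 stood at 3.47 and 3.55, and 5 of 17 iron uptake genes rose while 4 fell. Beyond hmg1, the sterol methyltransferase gene erg6 stood at 1.72 and 4.13, yet of 21 sterol genes 3 rose and 6 fell and the median was 0.168 and -0.0891. Among 27 chaperone genes hsp16, for a small heat shock protein, stood at 3.22 and 2.27, and in all 3 rose and 4 fell. Stress response genes rose in 4 of 21 cases and fell in 6. The lists were written with earlier results of these data known, and the counts are to be read against 21.1% up and 19.9% down over all genes tested.

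**Figure D3:**
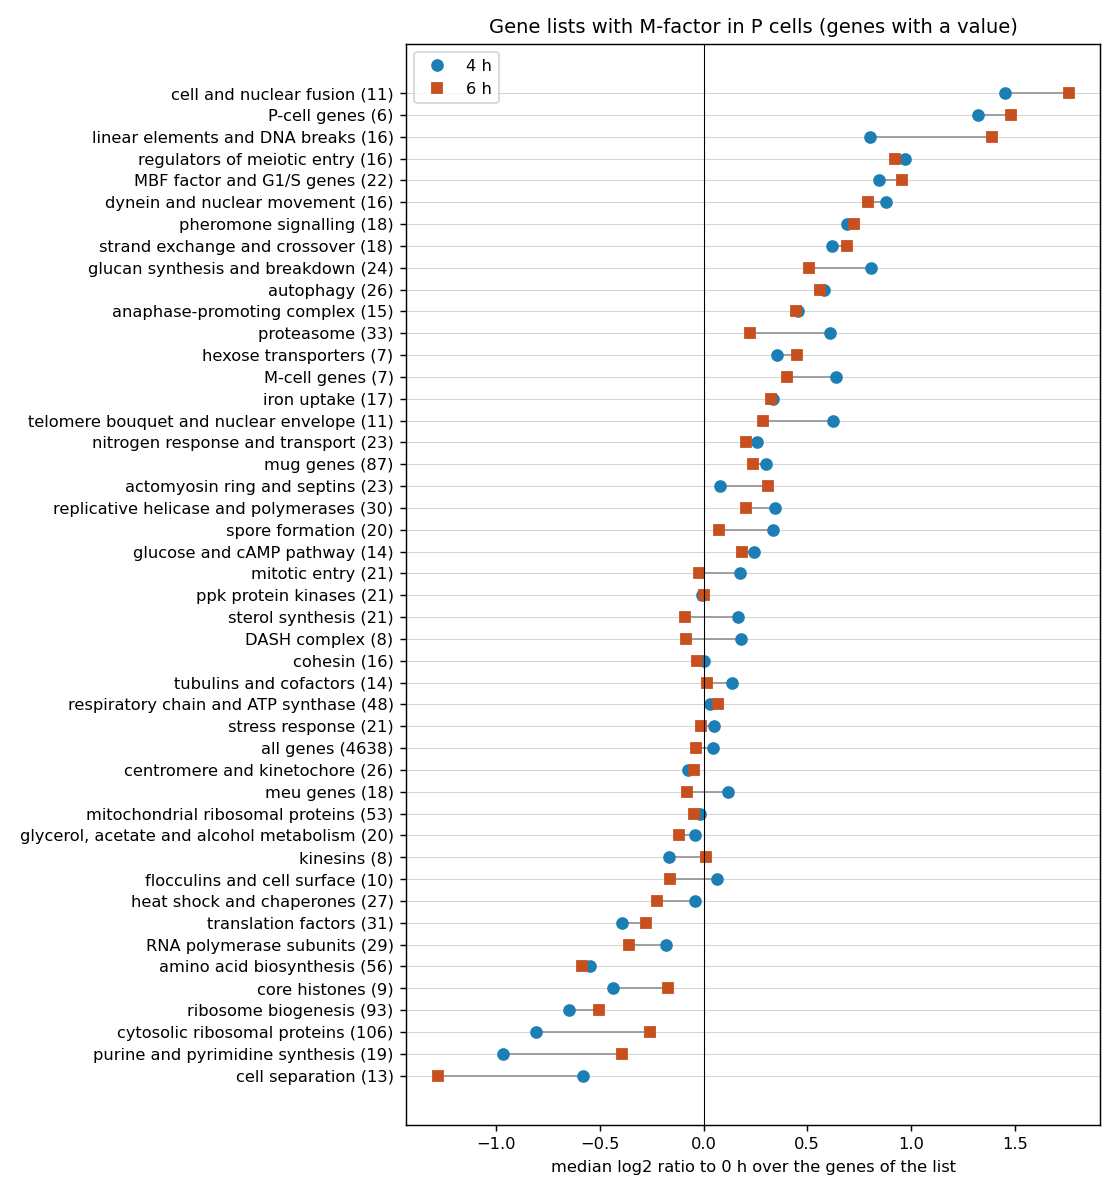
Median log2 ratio of M-factor-treated over untreated P cells for each list of a function or class, at 4 h (circles) and 6 h (squares), with the number of genes in brackets. Cell and nuclear fusion lies at the top with 1.45 and 1.76, and cell separation in the last row with -0.58 and -1.28, the lowest at 6 h but not at 4 h, where purine and pyrimidine synthesis lies at -0.964, and the 4638 genes as a whole lie at 0.0447 and -0.0338.

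Between 4 and 6 h, 201 genes were 2-fold higher at 6 h, 4.33% of the 4638 genes, and 176 were 2-fold lower, 3.79%. With 1 array a time point there is no replicate check on these differences beyond the spots. The spots of the 2 arrays did not overlap, with at least 2 on each, for 149 of the 201 and 121 of the 176 genes. After running-median centring 162 of the 201 were still 2-fold higher, but only 97 of the 176 still 2-fold lower. The median course of the higher genes was -0.158 at 2 h, -1.33 at 4 h and -0.0230 at 6 h, and that of the lower genes -0.294, 0.337 and -0.916. The 2 h median of the higher genes lay near that of 6 h, and that of the lower genes lay about midway. Both sets were chosen by the change between 4 and 6 h, and the 2 h array had the treated RNA in Cy5. With P-factor, in another culture with its own 0 h RNA, 6 of 194 of the higher genes with values on those arrays were also 2-fold higher at 6 h than at 4 h, against 0.489% of all genes, and 1 of 149 of the lower genes was 2-fold lower, against 0.69%.

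Genes of nuclear movement, fusion and recombination were among those higher at 6 h. The num1 spots read 1.82 and 1.41 at 4 h and 4.68 and 4.59 at 6 h. The rep1 spots read 4.66 and 1.69 at 4 h and 5.47 and 5.77 at 6 h. Those of dni1 read 3.65 and 1.30 at 4 h and 5.32 and 4.91 at 6 h. Those of rec25 read 2.24 and 1.23 at 4 h and 4.04 and 3.72 at 6 h. For num1, dni1 and rec25 the 2 h ratios were already 3.82, 4.68 and 3.37, so that the single 4 h array gave the lowest values. These genes are among those picked by the rise from 4 to 6 h. The treated RNA was in Cy5 at 2 h and in Cy3 later, so dye and time cannot be told apart. The meiotic gene meu26 followed the same course, at 3.07, 0.602 and 2.95 at 2, 4 and 6 h, as did wtf25, at 3.39, 1.40 and 4.00, a member of a family of near-identical genes. The erg6 gene climbed throughout, with 0.20 at 2 h, 1.72 at 4 h and 4.13 at 6 h. With P-factor erg6 also stood higher later, at 1.88 at 4 h and 3.83 at 6 h. In pac3 the spots read -1.02 and 0.45 at 4 h and 2.54 and 2.81 at 6 h. Others were genes low at 4 h and near 0 at 6 h, namely SPAC27D7.11c at -3.24 and -0.173, the splicing kinase gene prp4 at -2.99 and -0.292 and the kinesin gene klp6 at -2.61 and -0.0345. The wtf5 gene, at -2.29 and 0.593, and SPCC569.07, at -2.81 and 0.00874, rest at 4 h on spots that disagreed or on 1 spot.

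**Figure D4:**
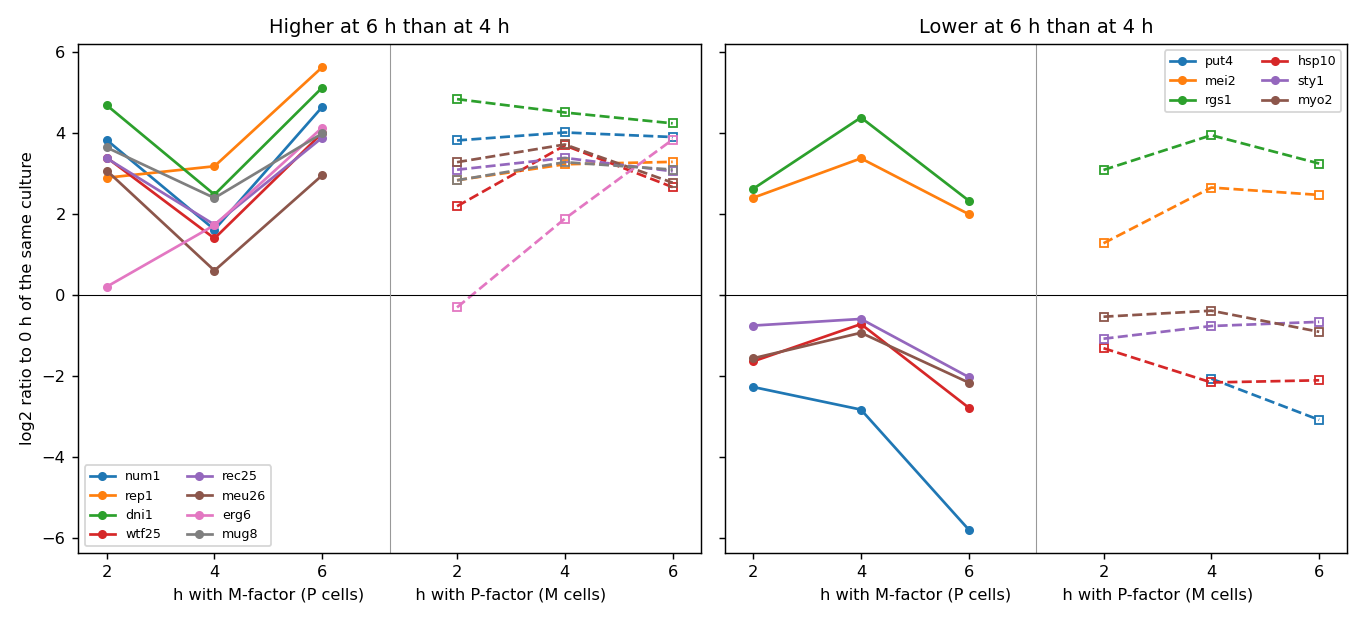
Log2 ratios to 0 h of the same culture at 2, 4 and 6 h, with M-factor in P cells on the left of each panel (solid lines, filled points) and P-factor in M cells on the right (dashed lines, open squares), for genes 2-fold higher (left panel) and lower (right panel) at 6 h than at 4 h of M-factor. With M-factor num1, dni1, rec25, wtf25 and meu26 dip at 4 h, whereas erg6 rises throughout. The treated RNA was in Cy5 at 2 h of M-factor and in Cy3 on the other arrays shown.

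Of the 10 largest drops between 4 and 6 h among genes whose spots did not overlap between the arrays, 8 rest on a single spot on 1 of the arrays or on both. These are SPCC297.05, sim4, rps21, SPAC1002.20 and sdj1 at 4 h, and thi2, sdj1, SPAC212.06c and aim19 at 6 h. The sim4 gene read 3.55 from 1 spot at 4 h and -0.226 and -1.61 at 6 h, and rps21 5.27 from 1 spot at 4 h and 2.55 and 1.41 at 6 h. The put4 gene had 2 spots on each array, at -3.15 and -2.50 at 4 h and at -5.15 and -6.42 at 6 h. In SPBPB2B2.19c, at 0.0688 and -3.19, the 6 h spots lay at -5.69 and -0.69. Further drops with named roles were hsp10, for the mitochondrial co-chaperonin, at -0.717 and -2.78, rgs1, at 4.38 and 2.33, the stress kinase gene sty1, at -0.591 and -2.02, and the myosin gene myo2 of the contractile ring, at -0.931 and -2.16. The meiotic regulator gene mei2 was likewise lower at 6 h, at 3.37 and 1.99.

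Set against 2 h of M-factor, the later ratios differed in few genes by the test of the difference. Limma called 11 of 4487 genes higher at 4 and 6 h than at 2 h, 0.245%, and 10 lower, 0.223%. Among the lower were genes of cell separation, which were near 0 at 2 h. The eng1 gene stood at -0.442 at 2 h, -4.38 at 4 h and -4.28 at 6 h (difference -3.89, standard error 0.302, adjusted p = 0.011, limma). The adg1 gene stood at -0.638, -5.48 and -6.64, cfh4 at -0.307, -3.87 and -3.99, and slp1 at -0.00747, -2.83 and -2.69. Among the higher, hmg1 stood at 1.19, 6.16 and 8.25 (difference 6.01, adjusted p = 0.027), rsm1 at 2.23, 4.90 and 4.74 and ght4 at 0.125, 2.47 and 2.17. Without the 4 h array the calls were 240 higher and 183 lower, and without the 6 h array 263 and 215. In these reduced fits the spread came from the P-factor arrays alone. The treated RNA was in Cy5 at 2 h and in Cy3 later, so dye and time cannot be told apart in this comparison, and the single 2 h array is assumed to vary like the others.

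P-factor acted on another strain with its own reference, which allows the responses to be overlapped. Of the 266 genes 2-fold up at 4 and 6 h of M-factor with values on the P-factor arrays, 122, or 45.9%, were 2-fold up at 4 and 6 h of P-factor, against 4.38% of all genes. The 122 genes made up 61.9% of the 197 genes induced by P-factor. For the repressed genes the overlap was 80 genes, 40.8% of 196 with M-factor and 43% of 186 with P-factor, against 4.14% of all genes 2-fold down with P-factor. The median ratio of the genes induced by M-factor was 1.66 and 1.73 with M-factor at 4 and 6 h, and 1.12 and 1.06 with P-factor. Since the genes were selected on the M-factor arrays, a lower median elsewhere is a description only. A constant dye bias of a gene would be in both courses, as the treated RNA was in Cy3 on all 4 arrays, and its part in the overlap was not tested.

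Tested directly, the responses of P cells to M-factor and of M cells to P-factor differed in 50 genes, 24 higher with M-factor, 0.534% of 4496, and 26 lower, 0.578%. SPAC1565.03 stood at 5.67 and 5.31 with M-factor and at 0.98 and 0.93 with P-factor (difference 4.53, standard error 0.241, adjusted p = 0.00138, limma). The hmg1 gene stood at 6.16 and 8.25 with M-factor and at 2.50 and 2.77 with P-factor (difference 4.58, standard error 0.605, adjusted p = 0.0297). The csr103 gene stood at 5.48 and 5.08 with M-factor and at 1.76 and 1.36 with P-factor, and rsm1 at 4.90 and 4.74 with M-factor and at 1.54 and 1.5 with P-factor. SPBC1289.14 stood at -0.417 and -1.02 with M-factor and at -3.53 and -3.94 with P-factor. Read through the other arrays, the M-factor 6 h ratio was 2.77 for hmg1 and 1.75 for rsm1, near their P-factor 6 h ratios. For SPAC1565.03 it was 3.24, for csr103 3.40 and for SPBC1289.14 -1.51, between the 6 h values of M-factor and P-factor. The 26 genes lower with M-factor included some genes of M cells, and others such as eng1 and dbp3. The sxa2 gene stood at 0.0605 and 0.401 with M-factor and at 9.36 and 6.27 with P-factor (difference -7.58). The M cells carry a mutant sxa2 gene. The mam2 gene stood at 0.343 and -0.569 with M-factor and at 5.33 and 4.79 with P-factor (difference -5.17). The adg1 gene was also lower with M-factor, at -5.48 and -6.64, than with P-factor, at -2.90 and -3.53, as were sqs2, at -3.75 and -3.23 against -0.857 and -0.924, and htr11, at 0.706 and -0.168 against 2.92 and 2.71. A fit that leaves out 1 of these arrays takes its spread from the other pheromone's arrays alone. The counts of 24 and 26 depend on the arrays used. They were 327 and 310 without the M-factor 4 h array, 566 and 581 without the M-factor 6 h array, 3 and 2 without the P-factor 4 h array, and 4 and 5 without the P-factor 6 h array, while running-median centring left 9 and 4.

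The 6 h RNA of P cells was also hybridised against the 6 h RNA of M cells, so the M-factor 6 h ratio can be formed along another path, from the P-factor 6 h array and both hybridisations of M against P cells. Over 4591 genes the direct ratio and this indirect ratio differed by a median of 0.351, and 341 genes, 7.43%, lay over 1 log2 unit apart. Of the genes 2-fold up at both times 73 of 266, or 27.4%, lay over 1 apart. The direct 6 h value was part of how these genes were chosen. Their median was 1.73 on the M-factor array and 1.17 by the other path, and for the repressed genes it was -1.42 and -0.968. Both hybridisations of M against P cells had a small spread, with median absolute deviations of 0.117 untreated and 0.0701 treated, against 0.379 on the P-factor 6 h array. For most genes the indirect ratio therefore lies close to the P-factor 6 h ratio, whose median over the induced genes was 1.06. For these genes it is no independent check of the direct one. In some genes the indirect ratio lay far from the P-factor 6 h ratio, as in SPAC1565.03, at 3.24 and 0.934, and mam2, at 3.38 and 4.79. The dni2 gene stood at 7.19 directly and 6.25 by the other path, with 6.05 on the P-factor 6 h array, and fus1 at 3.47 and 3.45, with 3.23 there. The widest gaps among genes past 2-fold at 6 h were in hmg1, at 8.25 directly and 2.77 by the other path, aim19, at -4.01 and -0.349, SPBC27.05, at -5.07 and -1.75, rsm1, at 4.74 and 1.75, and map2, at 3.28 and 0.319. The put4 gene stood at -5.79 and -2.92, and adg1 at its floor of -6.64 and at -3.97. In SPCC24B10.03 the sign differed, with 1.06 and -1.78. The remaining 2 of the 10 widest were dps1, at -3.03 and -0.246, and knh4, at 4.52 and 2.08. The log base of the treated M over P array is likely natural log but is not settled. The count of 341 was the same when it was read as log2, which bears little on the base because of the small spread of that array.

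**Figure D5:**
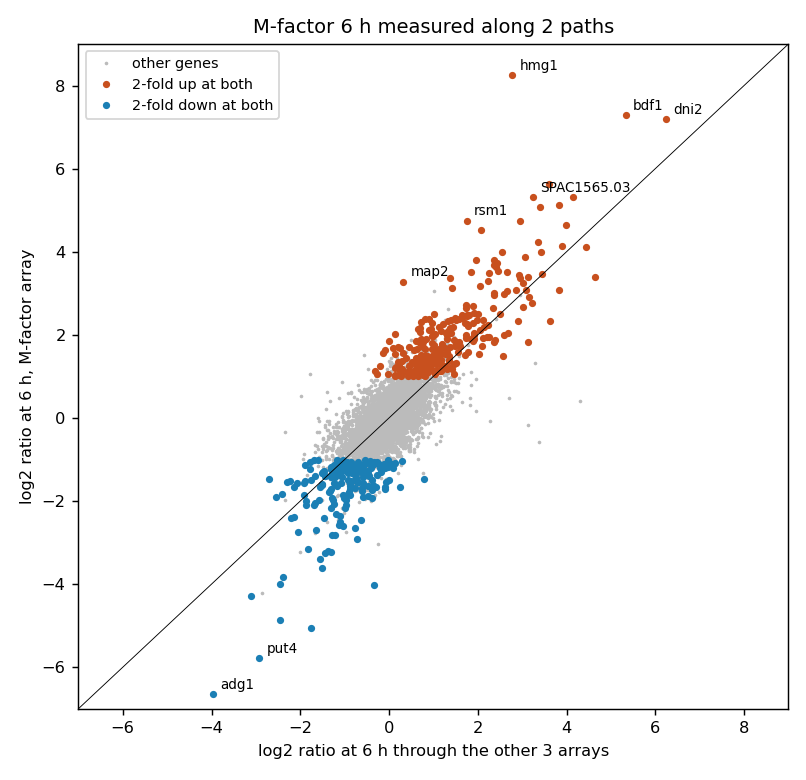
Each point is a gene, with the log2 ratio at 6 h of M-factor measured on the M-factor array on the y axis and the same ratio formed from the P-factor 6 h array and both arrays of M over P cells on the x axis. The line marks equal values; hmg1 lies at 8.25 on the y axis and 2.77 on the x axis, and dni2 at 7.19 and 6.25.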

How the data were processed

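Treated P cells (M-factor, 4 and 6 h) and untreated P cells (0 h) were compared on 2-colour arrays of spotted PCR products. The authors quantified spots with Imagene 4.2 and normalised by lowess in GeneSpring; genome build and background handling are not given in the sources used here. For the M-factor arrays of 2 and 4 h the authors deposited log2 ratios, treated over untreated, and for all other arrays the authors deposited natural log ratios (for the treated M over P array likely, not settled). The sources do not state the bases. Under this reading the mean fold changes with M-factor were recomputed for 155 genes of the study's site list. They met that list within 2% or its rounding for 151 genes, and under any other reading for at most 12. Only the bases of the M-factor arrays were varied. Those of the P-factor arrays and of the untreated M over P array were not checked this way. All values were converted to log2. The deposited values hold no intensities or counts, so the number of arrays limits the precision.

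Of 11520 spots 9522 had 1 symbol, 134 several and 1864 none; only the first were named. The platform annotation is old, and symbols were updated to RefSeq by gene number for 9442 spots and by symbol or synonym for 50 and 26, with 4 kept as given. Spots of a gene were averaged. Linear models were fitted with limma 3.58.1 (lmFit, eBayes; R 4.3.3) to 4496 genes, with a coefficient each for M-factor 2 h, the mean of M-factor 4 and 6 h and the mean of P-factor 4 and 6 h, 2 residual degrees of freedom and Benjamini-Hochberg adjustment at 0.05. Python 3.11.15 with numpy 2.4.6, pandas 2.3.3 and matplotlib 3.10.9 did the rest. The fits were tested on simulated data first. Labels name no separate cultures, so p-values measure the spread between these arrays only.

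The members, lists and tests were chosen with earlier results of these data known. Genes were named by a rule of size (the 15 highest and 12 lowest means, the 10 largest changes each way between 4 and 6 h among genes whose spots did not overlap, the 5 largest called differences each way from P-factor, up to 6 members of each list, the 10 widest gaps between the paths) or because the paper names them. Gene list members that a name pattern or an old synonym had caught wrongly were removed after values were seen. Genes at the 2-fold limit and those with differences from 2 h in the closing section were named after their values were seen. Alternatives changed the threshold, spots, centring, scale, log base, fit and arrays; running-median centring and a minimum of 2 spots were added after seeing the data.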

Additional observations from a re-analysis of the deposited data

Results flagged for a closer look

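The 5 largest differences each way are given here, and those from 2 h were chosen by size after their values were seen. Limma called 24 genes higher and 26 lower with M-factor in P cells than with P-factor in M cells at 4 and 6 h. The differences were 4.58 for hmg1, 4.53 for SPAC1565.03, 3.72 for csr103, 3.30 for rsm1 and 3.02 for SPBC1289.14. On the other side they were -7.58 for sxa2, -5.17 for mam2, -2.85 for adg1, -2.60 for sqs2 and -2.54 for htr11. For adg1 both M-factor 6 h spots were at the floor, and for sqs2 the duplicate spots disagreed by several log2 units.

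Differences between 4 and 6 h of M-factor and 2 h, again by limma, were called in 11 genes higher later and 10 lower. The differences were 6.01 for hmg1, 3.27 for mug177, 2.95 for zpr1, 2.71 for per1 and 2.63 for SPBC3B8.06. The mug177 gene stood at -1.93 at 2 h, 1.19 at 4 h and 1.5 at 6 h, zpr1 at -4.51, -1.67 and -1.45, and per1 at -2.37, 0.343 and 0.345. Lower later were adg1 by -5.43, eng1 by -3.89, cfh4 by -3.62, sqs2 by -3.57 and uds1 by -3.37. Dye orientation changed together with time in this comparison and cannot be told apart from it.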

How the results depend on the processing

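The count of genes 2-fold up at both times (267) was 632 at 1.5-fold, 115 at 3-fold, 152 with every spot past 2-fold, 139 among genes whose spots lay within 1 log2 unit, 173 with both columns read as log2, and 446 and 385 on the 4 h and 6 h arrays alone. For genes down at both (204) these were 575, 49, 81, 82, 100, and 498 and 376, and 399 by the mean of both arrays. The count higher at 6 h (201) was 583 at 1.5-fold, 46 at 3-fold and 80 with agreeing spots, and that lower at 6 h (176) 615, 46 and 76, and 106 after running-median centring.

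Limma calls for the mean of 4 and 6 h (948 up, 895 down) were 585 and 544 with the M-factor arrays alone, 225 and 169 against a change of 1.5-fold, 594 down among genes with agreeing spots, and 0 and 0 by the methods' t-test after Benjamini-Hochberg (350 and 249 at an unadjusted p of 0.05). Calls of the difference from P-factor (24 higher, 26 lower) were 56 and 64 after scaling, 7 and 3 against 1.5-fold, and 9 and 4 after running-median centring; leaving out an array in turn gave 3 to 566 higher and 2 to 581 lower. With the time point as a replicate block they were 236 and 227. The deviations of same-time arrays correlated across genes at 0.146, and with only 2 time points this does not settle whether the time point pairs the arrays. Calls against 2 h (11 higher, 10 lower) were 5 higher after scaling and 3 after running-median centring, and 240 to 263 higher and 183 to 215 lower without an M-factor array. A fit without 1 array of a pheromone took its spread from the other pheromone's arrays alone. The causes were not tested.

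No named gene that passed a test changed direction under the alternatives run. This says little, as the alternatives reuse the same arrays. A gene with opposite signs at 4 and 6 h is also unlikely to pass the test of their mean. Over 302 single-gene results, 2562 values under an alternative stayed on their side of the threshold, 261 lost the call, 119 of them against a change of 1.5-fold, and 39 gained it. The methods' t-test, under which 0 genes were called after adjustment, is left out of this tally. Promoter motif shares were not run. With 1 array a time point, a difference between 4 and 6 h has no error but that of its spots.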
